A study of Brassica rapa with 8 samples.

Results

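The genes described here are 5 of the 38200 gene models in the deposited *B. rapa* expression table, the homologues of the transcription factors MYB28 (3 genes: Bra012961, Bra029311 and Bra035929) and MYB29 (2 genes: Bra005949 and Bra009245). They were chosen by identifier. The homologue names were taken as given, because the table pairs no identifier with a name and none of the 5 was among the identifiers found in the RefSeq gene table of *B. rapa*. RNA-seq of poly(A)+ RNA was done on 8 samples of the accession Chiifu-401-42. All tissues share this line, a Chinese cabbage inbred. Stem (1 sample), leaf (2 samples) and root (2 samples) were taken from plants 7 weeks old, flower (1 sample) from blooming plants and silique (1 sample), the seed pod, at 15 days after pollination. The labels give 15 to 25°C in a greenhouse for the plants, whereas the study's methods name a single temperature within that range. Callus (1 sample), a mass of undifferentiated cells, was grown in tissue culture at 25°C. No sample carried a treatment. Per the study's methods the 2 samples of leaf and of root came from different batches of plants, and the number of plants in a sample is not given in the sources used here. The tissue labels were not checked against marker genes, since no marker could be matched to an identifier.

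MYB28 and MYB29 are R2R3-type MYB transcription factors. In *Arabidopsis thaliana* they activate the genes that make aliphatic glucosinolates, the methionine-derived sulfur compounds that *Brassica* plants hydrolyse with myrosinase when their tissue is damaged. The enzymes under their control lengthen the side chain of methionine and build the glucosinolate core, and MYB28 is known as the main factor in leaves, with MYB29 in an accessory role that responds to jasmonate. The *Brassica* lineage went through a whole genome triplication after it separated from that of *A. thaliana*, so a single *A. thaliana* gene can have several copies in *B. rapa*.

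The 5 genes lie on 5 of the 423 scaffolds in the table, where positions are given by scaffold and not by chromosome, and no genome build is named. Bra012961 spans 2608284 to 2609634 of Scaffold000013, Bra029311 spans 660459 to 662077 of Scaffold000065 and Bra035929 spans 511118 to 512521 of Scaffold000110. Of the MYB29 homologues, Bra005949 spans 1364308 to 1365719 of Scaffold000005 and Bra009245 spans 3000351 to 3000755 of Scaffold000008. None of the 5 overlapped another gene model of the table. The nearest neighbour of any of them was 1608 bases away, on the higher side of Bra029311. The model of Bra009245 covers 404 bases between its ends, against 1411 bases for the other MYB29 homologue. The table gives no exons, so UTRs and introns are not described.

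Values are FPKM, the fragments of a gene divided by the length of its transcript and by the mapped fragments of the sample, so that genes of different length can be compared within a sample. The table gives a 95% confidence interval with each value. The number of fragments behind each value was worked out from how wide that interval is, on the assumption that the interval holds counting error alone. Per sample, estimated totals of implied fragments ran from 7933673 (silique) to 16417291 (root 1). For these totals, each gene's FPKM was multiplied by its median of fragments per FPKM and by the depth of the sample. The spread between plants is not part of the implied fragments. In these bulk samples, fewer cells that express a gene and less RNA of it per cell cannot be told apart.

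Among the MYB29 homologues, Bra005949 reached the highest FPKM of the 5 genes in any sample, and it did so in root. Its FPKM was 6.29 in stem, 3.87 in flower, 0.187 in silique, 0 as listed in callus, 7.98 in leaf 1, 5.71 in leaf 2, 184 in root 1 and 169 in root 2. Both root samples thus stood far above the 6 others. In root 1 and root 2, 98.6% and 98.3% of all genes of the table had a lower FPKM, whereas in leaf 1 this share was 67.5%. The root values rested on 3556 and 2179 implied fragments, and their 95% intervals, 178 to 190 and 162 to 176, did not overlap each other. In stem the interval was 4.72 to 7.87, which overlapped that of flower (2.78 to 4.97) and those of leaf 1 (6.69 to 9.26) and leaf 2 (4.37 to 7.05). The order after root was therefore leaf, stem and flower with overlapping intervals between neighbours, and then silique, where only 2 implied fragments were found. The tissue specificity index T, which is 0 for an evenly expressed gene and 1 for a gene found in a single tissue, was 0.980 for Bra005949. T was at least 0.9 in 19.3% of the genes expressed in at least 1 sample.

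The second MYB29 homologue, Bra009245, was not detected above the counting error in any sample. Its FPKM was 0.366 in stem and 0.384 in root 1, whereas 0 is listed for each of the 6 remaining samples. These values rested on 1 and 2 implied fragments, and the lower bounds of both intervals were 0. The short model limits what could be seen. In root 1 an FPKM of 1 corresponded to 5.20 implied fragments for Bra009245 and to 19.4 for Bra005949. In the same sample Bra005949 was 478-fold higher than Bra009245, with a 95% counting interval of 132 to 3948 (exact binomial, Clopper-Pearson).

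**Figure D1:**
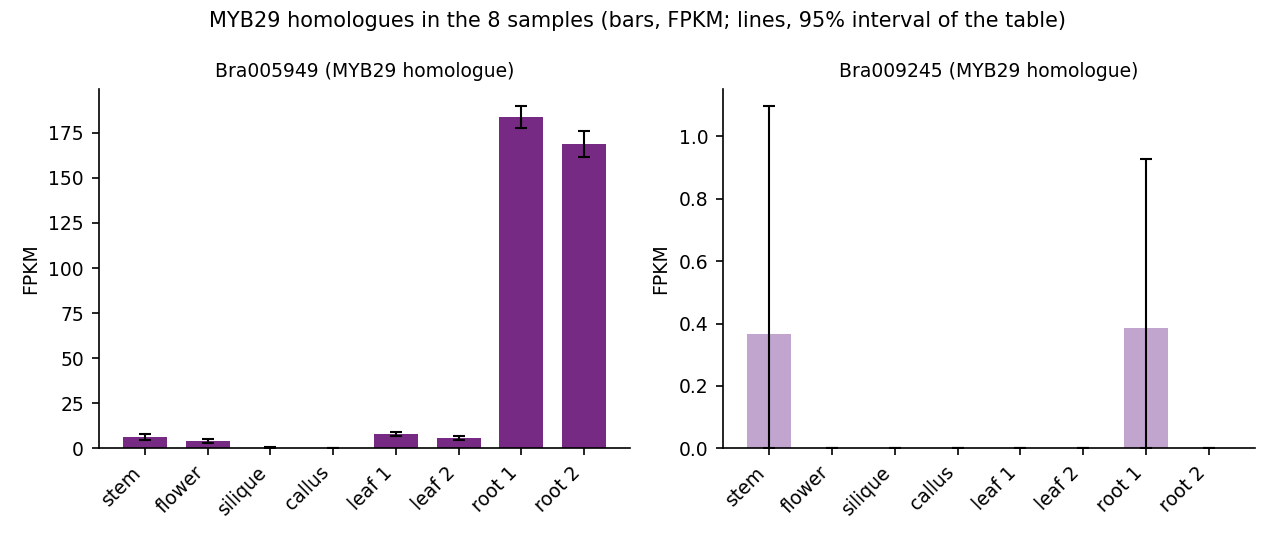
FPKM of the MYB29 homologues Bra005949 and Bra009245 (vertical axes, of different scale) in each of the 8 samples, with lines for the 95% interval given in the table. Bra005949 reached 184 and 169 in the root samples and at most 7.98 elsewhere, whereas every interval of Bra009245 included 0.

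The MYB28 homologues had their highest levels in the shoot, and each copy had its own order of tissues. Bra012961 was highest in leaf. Its FPKM was 6.05 in stem and 1.30 in flower, 13.9 and 12.9 in the leaf samples and 0.241 and 0.289 in the root samples, and it is listed at 0 in silique and callus. Both leaf samples lay above all others, and the intervals of leaf (lowest bound 10.97), stem (4.56 to 7.54), flower (0.688 to 1.91) and root (highest bound 0.578) did not overlap. The root values rested on 5 and 4 implied fragments. T was 0.886.

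Bra029311 had its own highest levels in flower and stem. Its FPKM was 13.5 in stem, 14.2 in flower, 0.414 in silique, 0.0735 in callus, 6.57 and 4.93 in the leaf samples and 1.67 and 1.72 in the root samples. Flower (12.2 to 16.1) and stem (11.4 to 15.7) had overlapping intervals, and those of leaf and of root lay below them without overlap. The upper quartile of all FPKM above 0 was 16.3 in flower and 21.7 in stem. The intervals do not hold such a shift of a whole sample, and its part in the order of flower and stem was not tested. This copy was the only one of the 5 genes with a lower bound above 0 in silique, 0.0438 on 5 implied fragments. T was 0.697, near the median of 0.679 over the genes expressed in at least 1 sample.

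Bra035929 had the highest FPKM of the MYB28 homologues in stem, leaf and root. Its FPKM was 30.2 in stem, 2.44 in flower, 0.345 in silique, 0 as listed in callus, 20.4 in leaf 1, 20.9 in leaf 2, 16.5 in root 1 and 13.2 in root 2. Stem (26.9 to 33.5) lay above the leaf samples (18.4 to 23.4 over both). The root intervals (11.2 to 18.2 over both) ended just below those of leaf. Flower (1.60 to 3.27) was far lower, and T was 0.747.

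**Figure D2:**
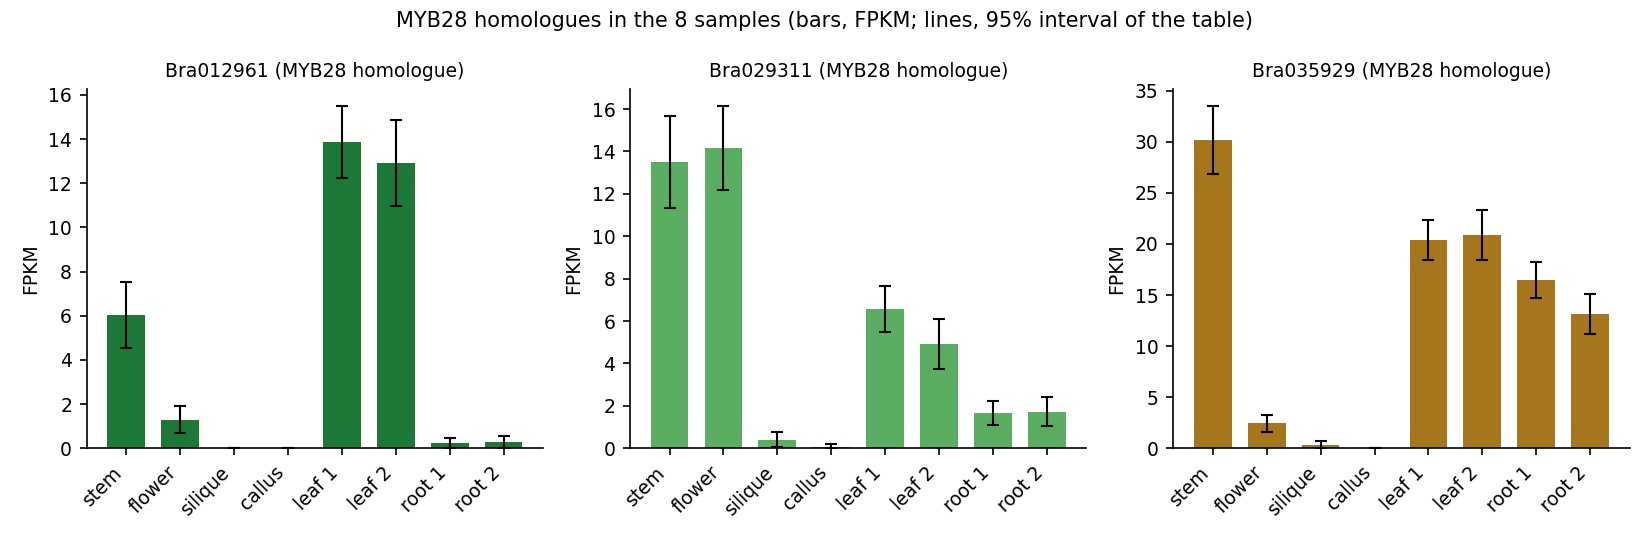
FPKM of the MYB28 homologues Bra012961, Bra029311 and Bra035929 (vertical axes, of different scale) in each of the 8 samples, with lines for the 95% interval given in the table. In FPKM as deposited, Bra012961 was highest in leaf (13.9 and 12.9) and Bra029311 in flower and stem (14.2 and 13.5). Bra035929 was highest in stem (30.2), and only Bra035929 exceeded 10 in root.

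The make-up of the MYB28 transcripts by copy differed between the tissues. Of the summed FPKM of the 3 copies, Bra035929 held 60.7% in stem, 13.6% in flower, 50.0% and 54.0% in the leaf samples and 89.6% and 86.8% in the root samples. Bra029311 held 27.2% in stem, 79.1% in flower, 16.1% and 12.7% in the leaf samples and 9.11% and 11.3% in the root samples. Bra012961 held 12.2% in stem, 7.26% in flower, 33.9% and 33.3% in the leaf samples and 1.31% and 1.90% in the root samples. Over stem, flower, leaf and root, the share of Bra012961 was thus highest in leaf, that of Bra029311 in flower and that of Bra035929 in root. Silique and callus were left out of this order, since the copies had 9 implied fragments in silique and 1 in callus. For each copy, the 2 leaf samples did not overlap the 2 root samples in this share, which was not tested. For Bra029311 the gap was small, with 12.7% in leaf 2 and 11.3% in root 2. These values rested on 71 and 25 implied fragments of this copy.

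Within samples, these differences between copies exceeded the counting error. In flower Bra029311 was 5.82-fold higher than Bra035929, with a counting interval of 4.03 to 8.62. In stem the order was the other way, with Bra035929 2.23-fold higher than Bra029311 (1.84 to 2.72), and the same held in leaf 1 (3.10-fold, 2.56 to 3.78) and leaf 2 (4.24-fold, 3.26 to 5.58). Bra012961 was 2.11-fold and 2.62-fold higher than Bra029311 in the leaf samples (1.72 to 2.60 and 1.98 to 3.50), and Bra029311 was 2.24-fold higher than Bra012961 in stem (1.67 to 3.03). In silique, on 5 and 4 implied fragments, Bra029311 and Bra035929 could not be told apart (ratio 1.20, 0.258 to 6.05). These intervals compare copies within a library, and for stem, flower and silique no replicate check exists. The study's methods name uniquely mapped reads, but the table does not say how reads that match several copies were counted. In root 1 the implied fragments of Bra029311 (36.5) and Bra035929 (344.5) were not whole numbers, and a part of shared reads in these values was not tested.

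**Figure D3:**
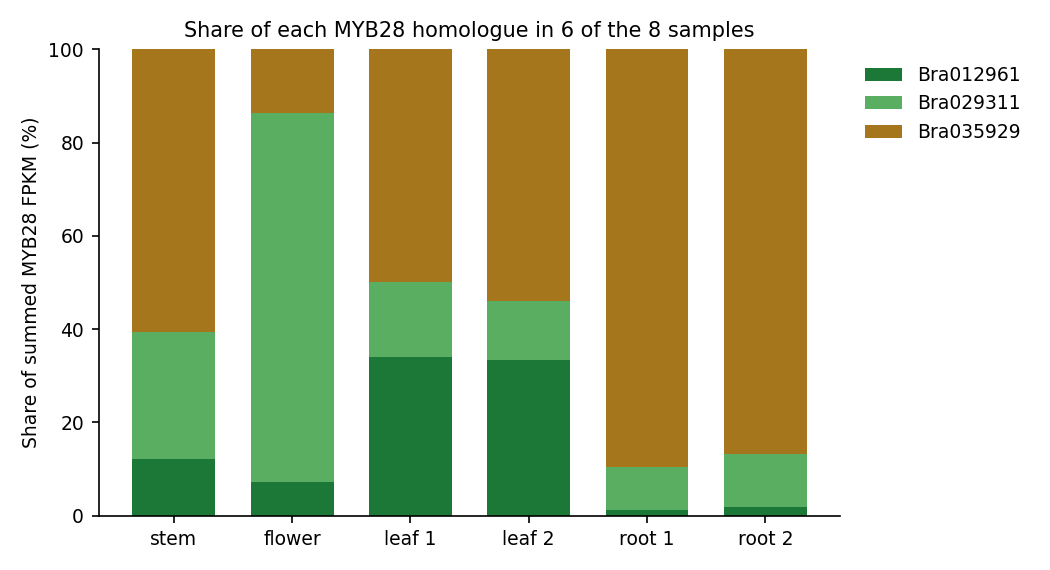
Share of each MYB28 homologue in the summed FPKM of the 3 copies (vertical axis, percent), for the samples of stem, flower, leaf and root. Bra029311 made up 79.1% in flower, whereas Bra035929 made up 89.6% and 86.8% in the root samples. Silique and callus are not drawn because their sums were 0.760 and 0.0735 FPKM.

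Set against each other, the homologues of the 2 factors were unequal in opposite directions in root and shoot. The MYB29 sum was 6.66 in stem, 3.87 in flower, 7.98 and 5.71 in leaf and 184 and 169 in root. The MYB28 sum was 49.8 in stem, 17.9 in flower, 40.8 and 38.7 in leaf and 18.4 and 15.2 in root. The ratio of the MYB29 to the MYB28 sum was therefore 0.134 in stem, 0.216 in flower, 0.195 and 0.147 in leaf and 10.02 and 11.1 in root. The leaf and root ratios did not overlap. With 2 samples a tissue, no test of the ratio was made. Since FPKM of both sums in a sample are scaled by the same number of fragments, the scaling of a sample cancels in this ratio.

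**Figure D4:**
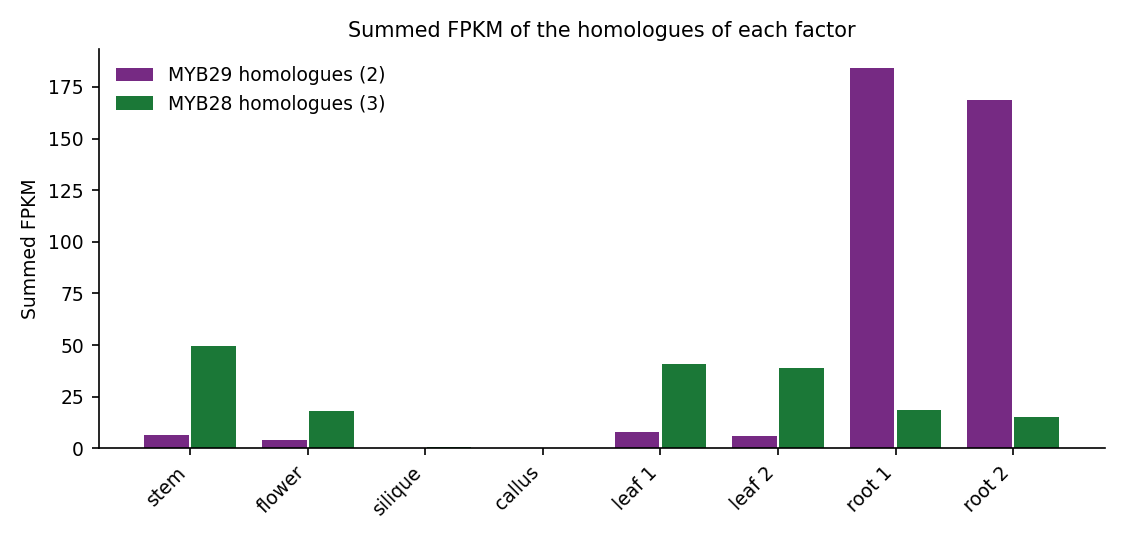
Summed FPKM (vertical axis) of the 2 MYB29 homologues (left bars) and the 3 MYB28 homologues (right bars) in each of the 8 samples. The MYB29 sum was the higher one in the root samples (184 and 169, against 18.4 and 15.2 for MYB28), and the MYB28 sum in stem, flower and leaf.

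Leaf and root were the only tissues with 2 samples, and they were compared with limma on log2(FPKM + 1), with p-values adjusted by Benjamini-Hochberg over the 25725 genes that reached an FPKM of 1 in 2 or more of the 4 samples. Of the 5 members, 4 passed this filter and Bra009245 did not. Bra012961 passed it only through leaf, the tissue where it was high. Among all genes tested, 16.3% had an adjusted p under 0.05 and were higher in leaf and 34.6% were lower in leaf, 51.0% in all, so that a call by itself did not set a gene apart. Leaf and root differ in this table for a large part of the genes, and the median gene was lower in leaf by 0.47 on this scale.

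Bra005949 was lower in leaf by the widest margin. Its mean was 6.84 ± 1.60 FPKM in leaf and 176 ± 10.5 FPKM in root (SD, n = 2 each). The difference on the log2(FPKM + 1) scale was -4.51 with a standard error of 0.26 (limma, adjusted p = 3.0e-05), and 297 of the 25725 genes, itself included, had a difference at least as negative. Relative to the median gene the difference was -4.04.

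Of the MYB28 homologues, Bra012961 was higher in leaf, with 13.4 ± 0.673 FPKM there and 0.265 ± 0.0340 FPKM in root (SD, n = 2 each). Its difference was 3.51 with a standard error of 0.23 (limma, adjusted p = 5.0e-05), and relative to the median gene it was 3.98. Without the filter, which Bra012961 passed only through leaf, its adjusted p was 0.0061 (limma). That of Bra005949 was then 0.0060. Bra029311 was higher in leaf too, with 5.75 ± 1.16 FPKM, against 1.70 ± 0.0320 FPKM in root (SD, n = 2 each), a difference of 1.31 with a standard error of 0.25 (limma, adjusted p = 0.0046) and of 1.78 relative to the median gene. For Bra035929 the means were 20.6 ± 0.353 FPKM in leaf and 14.8 ± 2.32 FPKM in root (SD, n = 2 each). Both leaf samples were above both root samples, but the difference of 0.46, with a 95% interval of -0.13 to 1.05, did not pass the test (limma, adjusted p = 0.16). When the samples were scaled to a common upper quartile, the median gene was lower in leaf by 0.33 in place of 0.47, and Bra035929 passed with a difference of 0.61 (adjusted p = 0.034). The call of Bra029311 was lost without root 1 (limma, adjusted p = 0.091) and without root 2 (adjusted p = 0.076), where the lone root sample is assumed to vary like leaf. The number of all genes called, 13109, was 8439 without leaf 2, 7215 without root 1 and 7958 without root 2.

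**Figure D5:**
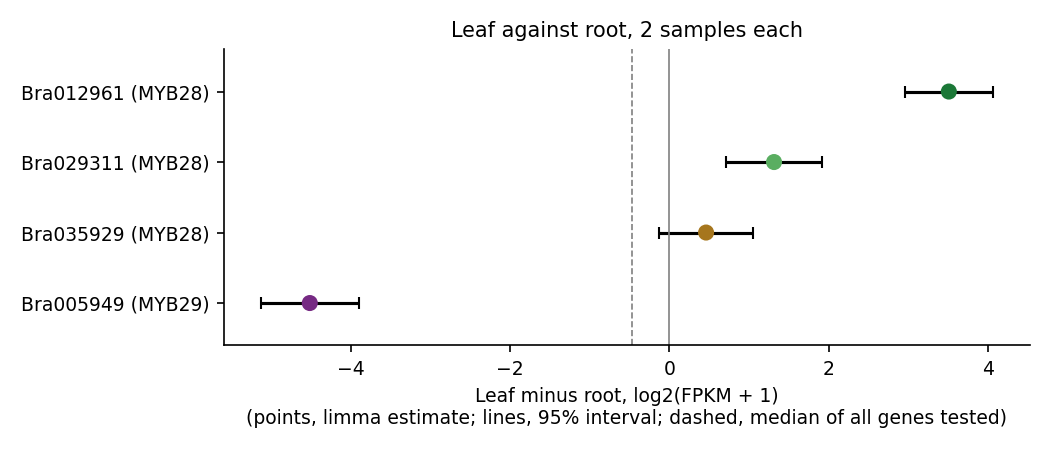
Difference between leaf and root (horizontal axis, log2(FPKM + 1), leaf minus root) of the 4 members tested, with the limma estimate as a point and its 95% interval as a line. The dashed line is the median of all 25725 genes tested (-0.47). Bra005949 lay at -4.51, Bra012961 at 3.51 and Bra029311 at 1.31, and the interval of Bra035929 included 0.

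Silique and callus had the lowest sums of these transcripts among the 8 samples. The summed FPKM of all 5 genes was 56.4 in stem, 21.8 in flower, 0.947 in silique, 0.0735 in callus, 48.8 and 44.4 in leaf and 202 and 184 in root. By the study's rule, a lower bound of the interval above 0, 1 of the 5 genes was expressed in silique and 0 in callus, where 66.3% and 68.2% of all genes were. The number was 4 in stem, flower, leaf 1, leaf 2 and root 1, where 67.2%, 69.3%, 68.3%, 64.4% and 73.6% of all genes were expressed. It was 3 in root 2, where 69.6% were. In callus a single implied fragment, of Bra029311, was found for the 5 genes together. In fragments per FPKM, callus was 1.19 times as deep as stem, where 4 of the genes were expressed. By estimated total, callus was slightly below stem, with 8667096 implied fragments against 8821451. The part of depth was not tested.

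Tissues with 1 sample have no test. A fold rule was used for them: a gene was counted where every sample of a tissue was at least 2-fold from every sample of the other on FPKM + 1. Against leaf, 4 of the 5 genes were lower in silique and 4 in callus, whereas 14.0% and 15.8% of all genes were. Against root, 2 were lower in silique (Bra035929 and Bra005949) and 3 in callus (these and Bra029311), beside 16.9% and 19.2% of all genes. Flower exceeded silique by this rule for 4 genes, as it did for 14.9% of all genes. Among them, Bra029311 had 14.2 FPKM in flower and 0.414 in silique, a 34.2-fold difference of FPKM.

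By the same rule stem differed from root in 3 of the genes and from leaf in 0. On FPKM + 1, none of the 5 was at least 2-fold higher or lower in stem than in both leaf samples. Of all genes, 12.9% were higher and 4.86% lower. Without the added 1, the stem FPKM of Bra029311 was 2.35 times its leaf mean. The leaf mean of Bra012961 was 2.21 times its stem FPKM. After scaling to a common upper quartile, Bra012961 was lower in stem by this rule. Against root, Bra012961 and Bra029311 were higher in stem (10.6% of all genes were) and Bra005949 was lower (10.7% of all genes were), with 6.29 FPKM in stem, against a mean of 176 FPKM in root. In flower the copies parted. Bra029311 was higher in flower than in leaf, as were 13.8% of all genes, with 2.46 times the mean FPKM of leaf. Bra012961 and Bra035929 were lower, as were 11.5% of all genes, at 10.3-fold and 8.48-fold below leaf.

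The copies also differed in which other genes their profiles resembled. Likeness was measured as Pearson's r over the 8 samples, on log2(FPKM + 1), for the 27588 genes that reached an FPKM of 1 in 2 or more samples. All genes share the same libraries and depths. Among the members, r was 0.68 between Bra012961 and Bra029311, 0.68 between Bra012961 and Bra035929 and 0.59 between Bra029311 and Bra035929. Across the factors, r of Bra005949 was 0.65 with Bra035929, 0.10 with Bra029311 and -0.06 with Bra012961. Of the genes compared, 88.8% were less like Bra012961 than Bra029311 was, so many genes that are no members were as alike.

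The genes nearest to each member were therefore not members. For Bra012961 they were Bra001547 (r = 0.996), Bra024017 (0.994) and Bra038908 (0.994), the last with 652 and 595 FPKM in the leaf samples, against 3.54 and 1.33 FPKM in the root samples. For Bra029311 they were Bra001148 (0.993), Bra015208 (0.989) and Bra004674 (0.981), and Bra015208 had 20.3 FPKM in flower and 16.6 FPKM in stem. For Bra035929 they were Bra026665 (0.998), Bra032115 (0.994) and Bra007162 (0.991), and Bra007162 had 181 FPKM in stem and 147 and 135 FPKM in the root samples. For Bra005949 they were Bra001798 (0.995), Bra033231 (0.992) and Bra028746 (0.992), all at far lower levels, with Bra033231 at 17.6 and 14.7 FPKM in root. The table gives no names for these genes.

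Between the samples of a tissue, the FPKM of these genes as deposited differed from little to about as much as that of a typical gene. Among genes with an FPKM of at least 1 in both samples, 60.7% differed less than Bra005949 in leaf and 51.5% less than Bra029311. The lowest such shares were 4.77% for Bra035929 in leaf and 3.90% for Bra029311 in root. These shares are on log2(FPKM + 1) and do not allow for a shift of the whole sample. On this scale, sample 2 minus sample 1 was -0.30 in leaf and -0.25 in root for the median of these genes. Bra035929 in leaf (0.033) and Bra029311 in root (0.024) were thus further from the median gene than Bra005949 was in leaf (-0.42). Leaf 2 over leaf 1 was 0.931 for Bra012961, 0.7498 for Bra029311, 1.02 for Bra035929 and 0.716 for Bra005949. Root 2 over root 1 was 1.20, on 4 and 5 implied fragments, for Bra012961, 1.03 for Bra029311, 0.801 for Bra035929 and 0.919 for Bra005949. On the log2 scale without the added 1, the median gene was lower in sample 2 by 0.35 in leaf and 0.29 in root. This is again among genes with an FPKM of at least 1 in both samples. The part of this shift in the differences between tissues was not tested.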

How the data were processed

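Poly(A)+ RNA of 8 samples of *B. rapa* was sequenced as paired ends. Per the study's methods reads were trimmed, filtered and mapped with TopHat, and the authors used Cufflinks on the uniquely mapped ones. The submitters' processing notes name TopHat 1.0.13, and the methods name a later version, so the table may come from another run than the methods describe. The deposited table holds FPKM, each with both ends of a 95% confidence interval, and names no tool. Its first line pairs the columns with the samples, and 0 columns of sample values were left unused. Of the table's identifiers 1 was found in the RefSeq gene table, and it is no member, so other glucosinolate genes were not identified and no sequence is shown.

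Implied fragments are 4 times the squared ratio of FPKM to the half-width of its interval on the upper side. Below 200 fragments, between 87.6% and 92.6% of the values in a sample came out whole to within 0.05. They were rounded for the exact binomial (Clopper-Pearson) 95% intervals. Totals per sample, estimated from each gene's median of fragments per FPKM scaled by sample depth, ranged from 7933673 to 16417291. In fragments per FPKM, samples were 1.00 to 1.90 times as deep as stem. The precision of each value follows from its implied fragments.

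T was computed with the study's formula over 6 tissues, leaf and root each entering as a mean of 2 samples. Leaf and root were compared with limma (eBayes with trend) on log2(FPKM + 1), which understates the change of low genes. The calculations were run on simulated data built with the assumptions of the method, such as intervals that hold counting error alone. This checks the arithmetic and not whether the assumptions hold for the table. The genes named were the 5 members and, for each member tested, the 3 genes with the highest Pearson's r. Alternatives covered pseudocounts of 0.1 and 5, filters, scaling, a replicate block, detection rules, a 4-fold rule, other measures of likeness and leaving out each leaf or root sample. The members, lists and tests were chosen with earlier results of these data known. Software was limma 3.58.1 in R 4.3.3, and scipy 1.17.1, pandas 2.3.3, numpy 2.4.6 and matplotlib 3.10.9 in Python 3.11.15.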

Additional observations from a re-analysis of the deposited data

How the results depend on the processing

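Leaf-root directions of the 4 members tested were the same under all alternatives. Bra005949 and Bra012961 passed the test in each alternative that tested them. Bra012961 was not tested where an FPKM of at least 1 was required in all 4 samples. The size of a difference moved with the pseudocount: for Bra012961 it was 5.21 at 0.1 and 1.80 at 5, and for Bra029311 1.69 and 0.68. In the fit described above, 3 of the 4 members tested were called, beside 51.0% of all genes. With upper-quartile scaling all 4 were called, beside 55.7% of all genes, and with the replicate block all 4, beside 77.1%. With an FPKM of at least 1 required in all 4 samples, 2 of 3 were called, beside 39.5%. Without the filter 3 of 5 were called, beside 29.3%. The number of all genes called, 13109, was 7670 with an FPKM of at least 1 required in all 4 samples and 7215 to 9502 with each leaf or root sample left out. With the replicate number as a block it was 19827. In that fit Bra035929 passed (limma, adjusted p = 0.0088) and no other member changed its call. Over the alternatives the adjusted p of Bra035929 ran from this value to 0.47. The difference between samples 2 and 1 had r = 0.64 between leaf and root across 25725 genes. In fragments per FPKM, leaf 1 and root 1 were each 1.90 times as deep as stem, leaf 2 was 1.26 and root 2 was 1.27 times. What lies behind this r was not tested. The labels do not say that a number marks a shared batch of plants across the tissues.

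T was 0.786 for Bra012961, 0.651 for Bra035929 and 0.850 for Bra005949 over 8 samples. On the log2(FPKM + 1) scale it was 0.773 for Bra012961, 0.559 for Bra029311, 0.572 for Bra035929 and 0.776 for Bra005949. Of the 40 values of the members, 24 were expressed by the interval, beside 68.4% of the values of all genes. The 2-fold rule was met in 43 of the comparisons of a member between 2 tissues, 56 with a pseudocount of 0.1 and 35 at 4-fold. For these counts no share over all genes was worked out, so they show only how the count moved with the setting. The genes nearest to a member depended on the measure: by Spearman's rho, 1 of the 3 nearest genes was kept for Bra029311 and 0 for each other member. Stem, flower, silique and callus have 1 sample each, so their values have no replicate check.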
